A study of Mus musculus with 12 samples.

Results

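The heat shock factors, the cap'n'collar (CNC) factors and their small MAF partners are the transcription regulators that cells use when proteins misfold or oxidants build up. They were represented by 10 of the 27179 genes listed in the count data, chosen by name with earlier results of these data known. *Hsf1* and *Hsf2* encode heat shock factors. *Nfe2l1* and *Nfe2l2* encode the CNC activators NRF1 and NRF2, and *Keap1* encodes the adaptor that targets NRF2 for degradation. *Maff*, *Mafg* and *Mafk* encode the small MAF proteins, and *Bach1* and *Bach2* encode CNC-family repressors.

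RNA-Seq was done on primary hippocampal neurons of newborn mouse pups, labelled C57BL/6, grown for 17 or 18 days on Transwell membranes, through which neurites grow while somas stay on the upper face. Neurons received 10 μM MG132, a proteasome inhibitor, for 7 h, or the solvent DMSO (Ctrl), and somas and neurites were harvested separately. Each of the 4 groups, Ctrl somas, MG132 somas, Ctrl neurites and MG132 neurites, had 3 libraries. The study's methods name C57BL/6 and FVB mice and give 17 days in culture, and nothing in the sources used here says that replicates came from separate litters, so p-values measure the spread between these libraries, which may be technical. The libraries held 4247610 to 22166347 counts, of which mitochondrial genes took 9.78% to 29.2% and the single most abundant gene 12.4% to 33.4%.

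The cultures and fractions were mixtures. Markers of 5 cell classes were all measured, and in Ctrl somas their summed levels ran from 1649 to 2616 CPM (counts scaled to library size with TMM factors) for 10 neuron markers, 4884 to 6067 for 9 astrocyte markers, 1417 to 5974 for 8 oligodendrocyte lineage markers, 966 to 1254 for 8 microglia markers and 202 to 275 for 8 fibroblast and vessel markers. Ctrl neurites held 1886 to 4093 CPM of the neuron markers and 811 to 1423 CPM of the microglia markers. The label of hippocampal neurons therefore names the source and not a pure cell type.

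HSF1 is held inactive by chaperones and is released when misfolded proteins occupy them, after which it binds heat shock elements and drives chaperone genes. HSF2 is a related factor that can share these elements with HSF1. NRF1 sits in the endoplasmic reticulum membrane and is degraded by the proteasome. When the proteasome fails, NRF1 is cut free, enters the nucleus and drives proteasome subunit genes. NRF2 is handed by KEAP1 to a CUL3 ubiquitin ligase in resting cells and, when released, drives antioxidant genes. Both CNC activators bind antioxidant response elements as dimers with a small MAF protein. Small MAFs have no activation domain of their own, and BACH1 and BACH2 use the same partners to repress the same kind of element. These regulators are known to be controlled largely as proteins, whereas the values below are mRNA levels.

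Promoter sequence is shown first because the regulators bind short elements that some of their own genes carry. RefSeq promoters (250 bases before to 50 bases after the start, GRCm38.p6) were given for 9 of the 10 genes, 15 promoters in all. An antioxidant response element was searched as TGACNNNGC on both strands, and it was present in 4 of these 15 promoters, those of *Maff*, *Mafg*, *Mafk* and *Nfe2l2*, against 12.4% of all 32851 promoters. A heat shock element was searched as GAANNTTC or TTCNNGAA, each of which reads the same on both strands, and it was found in 1 promoter, that of *Mafg*, against 15.1% of all. The TRE-type MAF recognition element was found in 0 of the 15 promoters and in 0.289% of all. Of the 15 promoters *Maff* had 3 and *Nfe2l1* 5, and the antioxidant match of *Maff* lay in 1 of its 3. The following stretches carry the matches in capitals, written 5′ to 3′ on the strand of the gene, and all lie upstream of the start that the promoter table uses. Both *Mafg* matches lie within the span of the gene given with its values. The *Mafg* and *Mafk* antioxidant matches read on the opposite strand, and both *Mafg* matches lie apart from each other.
*Maff* antioxidant element, chr15:79346499-79346527, plus strand, beginning 112 bases before the start: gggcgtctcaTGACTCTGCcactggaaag
*Mafg* antioxidant element, chr11:120633751-120633779, minus strand, beginning 222 bases before the start: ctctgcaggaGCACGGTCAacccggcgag
*Mafg* heat shock element, chr11:120633586-120633613, minus strand, beginning 56 bases before the start: gcgtcgccgcTTCATGAAtggaacccac
*Mafk* antioxidant element, chr5:139791513-139791535, plus strand, beginning 13 bases before the start: gatcccggaaGCGGTGTCAgtac
*Nfe2l2* antioxidant element, chr2:75704885-75704913, minus strand, beginning 240 bases before the start: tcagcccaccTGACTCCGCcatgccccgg
In GENCODE M21 exons of *Mafg* and *Mafk* themselves cover the *Mafg* heat shock match and the *Mafk* match. Exons of the opposite-strand noncoding genes *Gm17586* and *E030042O20Rik* cover the *Mafg* antioxidant match and the *Nfe2l2* match. A match of this kind describes letters in a window. Binding was not measured here.

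The question of the treatment comparison was which of these regulators changed at the mRNA level when the proteasome was inhibited, in somas and in neurites. After MG132, both heat shock factors, *Mafg* and *Bach1* rose in both fractions, by 2.38-fold to 4.94-fold in somas and 2.49-fold to 3.91-fold in neurites. *Maff* and *Mafk* rose in somas, by 5.31-fold and 3.83-fold. No regulator fell past the test in either fraction. All 10 genes passed the low-count filter and were tested among 14185 genes with edgeR's quasi-likelihood test, with p-values adjusted over all of them and a call at an adjusted p under 0.05.

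In somas 6 of the 10 genes were called higher, against 15.5% of all tested genes, and 0 were called lower, against 11.9%. The MG132 and Ctrl libraries did not overlap for 8 of the 10, against 45.9% of all genes. In neurites 4 were called higher, against 14.7%, and 0 lower, against 12.3%, and the libraries did not overlap for 4, against 40.9%. The median log2 fold change of all tested genes was -0.07 in somas and -0.16 in neurites. With the replicate number as a block, 7 were called higher in somas, against 19% of all genes, and 5 in neurites, against 17.7%. On library totals in place of TMM factors the neurites calls over all genes moved from 2085 higher and 1738 lower to 937 higher and 1336 lower. Microglia markers were lower after MG132 for 4 of 8 genes in somas and 7 of 8 in neurites, astrocyte markers for 7 of 9 and 4 of 9, and oligodendrocyte lineage markers for 5 of 8 in each fraction. Of the 6 fibroblast and vessel markers tested, 6 were lower in somas and 4 in neurites. Of the 10 neuron markers, 0 were lower in somas and 1 in neurites. Their part in the treatment results was not tested. Fewer cells of a type and less RNA per cell cannot be told apart in such bulk fractions.

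**Figure D1:**
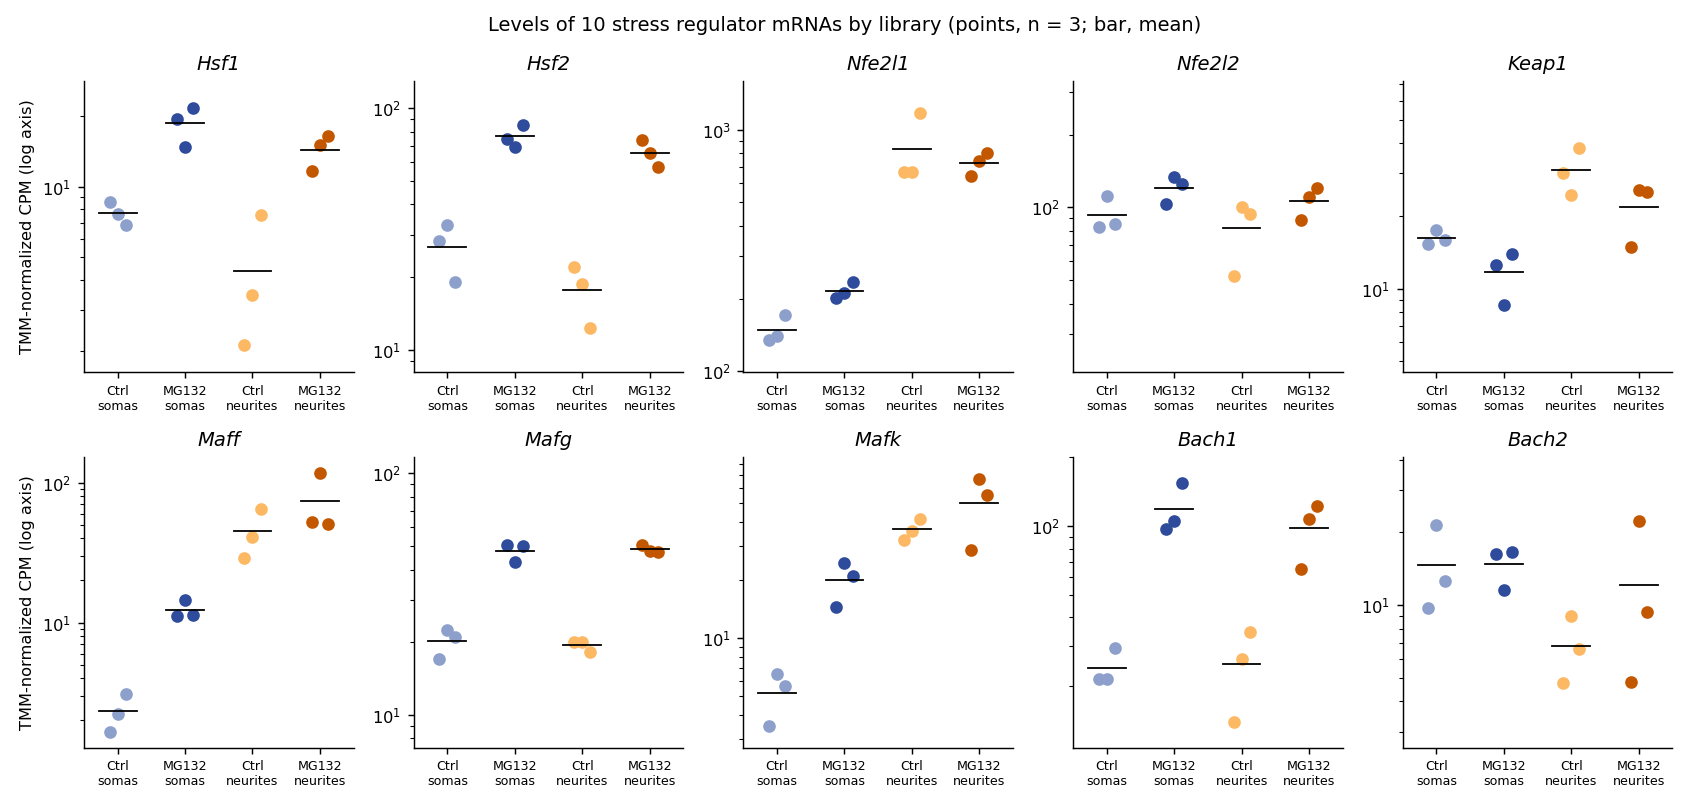
TMM-normalized CPM of the 10 regulator mRNAs on a log axis, 1 panel per gene and 1 point per library, with 3 libraries in each of 4 groups and a bar at the group mean. *Hsf2*, *Mafg* and *Bach1* stand higher in the MG132 libraries of both fractions, whereas *Nfe2l1*, *Maff* and *Mafk* stand higher in neurites than in somas.

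*Hsf1* (Entrez 15499, chromosome 15, 76477362 to 76501155 on GRCm38) had 8.56, 7.65 and 6.84 CPM in the Ctrl somas and 19.3, 14.7 and 21.6 CPM in the MG132 somas. Neurites held 2.12, 3.47 and 7.57 CPM in Ctrl and 11.6, 15.01 and 16.3 CPM after MG132. MG132 libraries were all higher than Ctrl libraries in both fractions. The log2 fold change was 1.27 ± 0.36 (SE) in somas (edgeR adjusted p = 0.0166) and 1.69 ± 0.38 in neurites (adjusted p = 0.00442). The Ctrl neurites values rest on 8, 31 and 45 counts, and 8 was the lowest count of any of the 10 genes in any library. The somas call was lost without Ctrl somas replicate 3 (adjusted p = 0.0564), without MG132 somas replicate 3 (adjusted p = 0.0626) and on library totals (log2 fold change 1.25, adjusted p = 0.0631).

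*Hsf2* (Entrez 15500, chromosome 10, 57483766 to 57513143) had 28.1, 32.9 and 19.1 CPM in Ctrl somas, whereas MG132 somas had 74.5, 69.2 and 85.4 CPM. In neurites it went from 22.0, 18.7 and 12.3 CPM to 74.1, 65.1 and 57.2 CPM. The 2 conditions were far apart in each fraction, with the lowest MG132 library above each Ctrl library. Its log2 fold change was 1.52 ± 0.24 in somas (adjusted p = 3.70e-04) and 1.90 ± 0.25 in neurites (adjusted p = 6.86e-05). Both heat shock factor mRNAs thus moved together. The log2 ratio of *Hsf1* to *Hsf2*, taken within each library from counts per kilobase of transcript, was -1.40 ± 0.32 (SD, n = 3) in Ctrl somas, -1.69 ± 0.16 in MG132 somas, -1.80 ± 1.36 in Ctrl neurites and -1.83 ± 0.44 in MG132 neurites. Between MG132 and Ctrl this ratio differed by -0.29 in somas (exact two-sided permutation test, p = 0.3, adjusted p = 0.42 over the 28 ratio comparisons made) and by -0.03 in neurites (exact p = 1.0), and the standard error of the latter, 0.82, leaves it poorly determined. With 3 libraries against 3 this test cannot give a p below 0.1, and in the ratio comparisons such a p had an adjusted value of 0.2.

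The 20 listed HSF1 target genes are the chaperones that the factor is known to drive. In somas 19 were called higher and 0 lower, with a median log2 fold change of 2.16, and in neurites 18 and 0, with a median of 2.22. Among all tested genes 15.5% were called higher in somas and 14.7% in neurites. *Dnajb1*, an HSP70 co-chaperone, rose by 4.15 ± 0.20 in somas and 3.64 ± 0.20 in neurites on the log2 scale, and *Hspb1*, a small heat shock protein, by 5.28 ± 0.49 and 4.58 ± 0.49. *Hspa1a* and *Hspa1b*, the inducible HSP70 genes, rose by 8.75 and 8.38 in somas. They are near-identical copies, so how reads split between them is uncertain. Of 9 genes for proteins that bind or modify HSF1, 7 were called higher and 0 lower in each fraction, with medians of 0.97 and 1.25, and 4 of the 9 (*Hspa8*, *Hsp90aa1*, *Hsp90ab1* and *Fkbp4*) are also in the target list. *Hsp90aa1* rose by 2.34 ± 0.20 in somas and 2.54 ± 0.20 in neurites, and its product is among the chaperones that restrain HSF1. *Hsbp1*, whose product binds heat shock factor trimers, gave -0.42 (adjusted p = 0.106) and -0.45 (adjusted p = 0.0837).

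*Nfe2l1* (Entrez 18023, chromosome 11, 96817414 to 96829968) was the member with the most counts. Ctrl somas had 135, 139.6 and 171 CPM, and MG132 somas had 202, 210.4 and 234 CPM. These groups did not overlap, and the log2 fold change was 0.54 ± 0.22 with an adjusted p of 0.0785. It was called with the replicate number as a block (0.54, adjusted p = 0.0053) and when only the 6 somas libraries were fitted (0.54, adjusted p = 0.0289). Ctrl neurites had 668, 668 and 1169 CPM, and MG132 neurites had 644, 739.8 and 801 CPM. Replicate 3 of the Ctrl neurites stood above every other library, and the neurites log2 fold change of -0.20 ± 0.21 (adjusted p = 0.528) became 0.24 without it.

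Of 34 proteasome genes, the known targets of NRF1, 31 were called higher and 0 lower in each fraction, with median log2 fold changes of 1.20 in somas and 1.31 in neurites. *Psmd4*, a ubiquitin receptor of the proteasome, rose by 2.05 ± 0.18 and 2.03 ± 0.18, and *Psmd11*, a lid subunit, by 1.86 ± 0.21 and 2.27 ± 0.21. *Psmb5*, *Pomp* and *Sem1* were not called in either fraction, and these 3 were named after their values were seen. Of 9 genes for proteins that act on NRF1 or its stability, 4 were called higher and 1 lower in somas, with a median of 0.35. In neurites 3 were called higher and 1 lower, with a median of 0.49. The shares of all tested genes called higher and lower were 15.5% and 11.9% in somas, and 14.7% and 12.3% in neurites. *Ddi2*, the protease that cuts NRF1 free, rose by 1.39 ± 0.26 in somas (adjusted p = 0.00108) and gave 0.49 ± 0.26 in neurites (adjusted p = 0.184). *Vcp*, the extractor of membrane proteins, rose by 0.92 and 1.09, *Syvn1*, a ubiquitin ligase of the endoplasmic reticulum, by 0.94 and 0.87, and *Hcfc1*, a chromatin cofactor, by 0.93 and 0.80. The gene called lower was *Ogt*, a sugar transferase, at -0.79 in somas and -0.78 in neurites, also named after its values were seen.

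*Nfe2l2* (Entrez 18024, chromosome 2, 75675513 to 75704663) was not called in any comparison of the main fit. It had 82.9, 112 and 85.1 CPM in Ctrl somas, 103, 134 and 125 in MG132 somas, 51.9, 100.2 and 94.0 in Ctrl neurites, and 88.3, 111 and 121 in MG132 neurites. The groups overlapped in both fractions. The log2 fold change was 0.37 ± 0.23 in each, with adjusted p-values of 0.252 and 0.253. With the replicate block in edgeR it was 0.37 in somas (adjusted p = 0.0693) and 0.40 in neurites (adjusted p = 0.0558). MG132 was higher in 3 of 3 same-numbered pairs of libraries in each fraction.

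*Keap1* (Entrez 50868, chromosome 9, 21229730 to 21239332) had 15.3, 17.5 and 15.9 CPM in Ctrl somas, and MG132 somas had 12.6, 8.53 and 13.9 CPM. These did not overlap, and the log2 fold change of -0.46 ± 0.27 did not pass the test (adjusted p = 0.236). Ctrl neurites had 30.2, 24.4 and 38.3 CPM and MG132 neurites 14.8, 25.6 and 25.0 CPM. These overlapped, and the log2 fold change was -0.49 ± 0.27 (adjusted p = 0.199).

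The balance of activator to adaptor needs no scaling between libraries, since both genes are read in the same library. The log2 ratio of *Nfe2l2* to *Keap1* per kilobase was 2.87 ± 0.14 (SD, n = 3) in Ctrl somas, 3.75 ± 0.51 in MG132 somas, 1.73 ± 0.63 in Ctrl neurites and 2.68 ± 0.24 in MG132 neurites. Each MG132 library was higher than each Ctrl library of its fraction. The difference was 0.88 ± 0.30 (SE) in somas and 0.95 ± 0.39 in neurites, each with an exact two-sided permutation p of 0.1 (adjusted p = 0.2), the smallest this design allows.

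**Figure D2:**
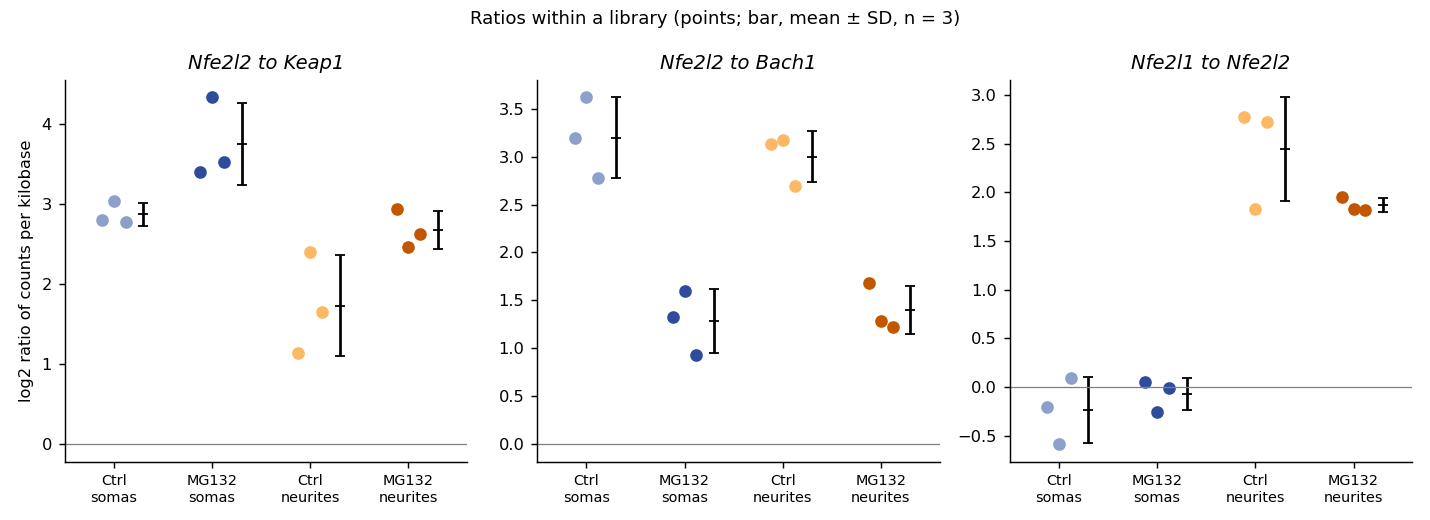
Log2 ratios of counts per kilobase within a library for *Nfe2l2* to *Keap1*, *Nfe2l2* to *Bach1* and *Nfe2l1* to *Nfe2l2*. Points are libraries, bars are the mean ± SD of 3. MG132 libraries stand above Ctrl in the first panel and below Ctrl in the second in both fractions, and neurites stand above somas in the third.

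The 20 listed NRF2 target genes were mixed. In somas 11 were called higher and 3 lower, with a median of 0.91, and in neurites 8 and 2, with a median of 0.50. The rises in somas were led by *Slc7a11*, a cystine transporter (5.99 ± 0.22 in somas, 5.83 ± 0.22 in neurites), *Osgin1*, an oxidative stress growth inhibitor (4.50 ± 0.62 and 3.82 ± 0.62), *Hmox1*, heme oxygenase (4.38 ± 0.45 and 3.42 ± 0.43), and *Srxn1*, sulfiredoxin (2.72 ± 0.19 and 2.08 ± 0.19). The 3 called lower in somas, named after their values were seen, were the glutathione transferases *Gstm1* (-2.04) and *Gsta4* (-0.62) and the pentose phosphate enzyme *G6pdx* (-1.22). *Nqo1*, a quinone reductase often used to report NRF2 activity, gave -0.64 in somas (adjusted p = 0.203) and 0.32 in neurites (adjusted p = 0.553). A further 9 genes were listed for proteins that bind KEAP1 or act in the turnover of KEAP1 or NRF2. Of these 9, 4 were called higher and 0 lower in somas, with a median of 0.40. In neurites 3 were called higher and 1 lower, with a median of 0.35 (*Syvn1* and *Btrc* are shared with the NRF1 list). Over all tested genes 15.5% were called higher and 11.9% lower in somas, and 14.7% and 12.3% in neurites. *Sqstm1*, an autophagy receptor that binds KEAP1, rose by 3.12 ± 0.23 and 3.21 ± 0.23, and *Cul3*, the scaffold of the ligase that KEAP1 serves, by 0.94 ± 0.15 and 1.46 ± 0.15. *Pgam5*, a mitochondrial KEAP1 partner, rose by 1.36 in somas and gave 0.62 in neurites (adjusted p = 0.0772). *Rbx1*, the RING subunit of the same ligase and the only one of the 9 called lower in neurites, gave -0.35 in somas (adjusted p = 0.324) and -1.39 in neurites (adjusted p = 7.29e-04).

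*Maff* (Entrez 17133, chromosome 15, 79346621 to 79359078) was low in Ctrl somas, at 1.66, 2.22 and 3.09 CPM from 20 to 28 counts, and reached 11.1, 14.5 and 11.2 CPM in MG132 somas. Ctrl neurites already had 29.1, 41.0 and 64.9 CPM, and MG132 neurites had 52.5, 118 and 50.2 CPM. Somas groups stood well apart while neurites groups overlapped. The log2 fold change was 2.41 ± 0.40 in somas (adjusted p = 5.44e-04) and 0.71 ± 0.35 in neurites (adjusted p = 0.143). In neurites it was called with the replicate block (0.69, adjusted p = 0.0460), with no low-count filter (0.85, adjusted p = 0.0303) and without Ctrl neurites replicate 3 (1.18, adjusted p = 0.0289). It was 0.18 without MG132 neurites replicate 2 (adjusted p = 0.731).

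*Mafk* (Entrez 17135, chromosome 5, 139791536 to 139802653) followed the same order. Its levels were 3.52, 6.54 and 5.63 CPM in Ctrl somas, 14.4, 24.4 and 21.1 in MG132 somas, 32.0, 36.0 and 41.5 in Ctrl neurites, and 28.5, 66.8 and 54.9 in MG132 neurites. The somas groups were apart and the neurites groups overlapped, with MG132 neurites replicate 1 below all Ctrl neurites. It rose by 1.94 ± 0.33 in somas (adjusted p = 6.57e-04), and gave 0.46 ± 0.31 in neurites (adjusted p = 0.290). Exons of the antisense neighbour *Tmem184a* cover 5.93% of its exonic bases, and default counting leaves out reads that fall on both genes.

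*Mafg* (Entrez 17134, chromosome 11, 120625117 to 120634955) was even across fractions. It had 17.0, 22.4 and 21.1 CPM in Ctrl somas, 50.5, 43.0 and 49.8 in MG132 somas, 20.1, 20.02 and 18.2 in Ctrl neurites, and 50.4, 47.8 and 47.2 in MG132 neurites. The MG132 values were above the Ctrl values in each fraction with little spread. The log2 fold change was 1.25 ± 0.18 in somas (adjusted p = 2.18e-04) and 1.32 ± 0.19 in neurites (adjusted p = 1.31e-04). This is the member whose promoter carries both a heat shock and an antioxidant match, and any part of these matches in the rise was not tested.

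**Figure D3:**
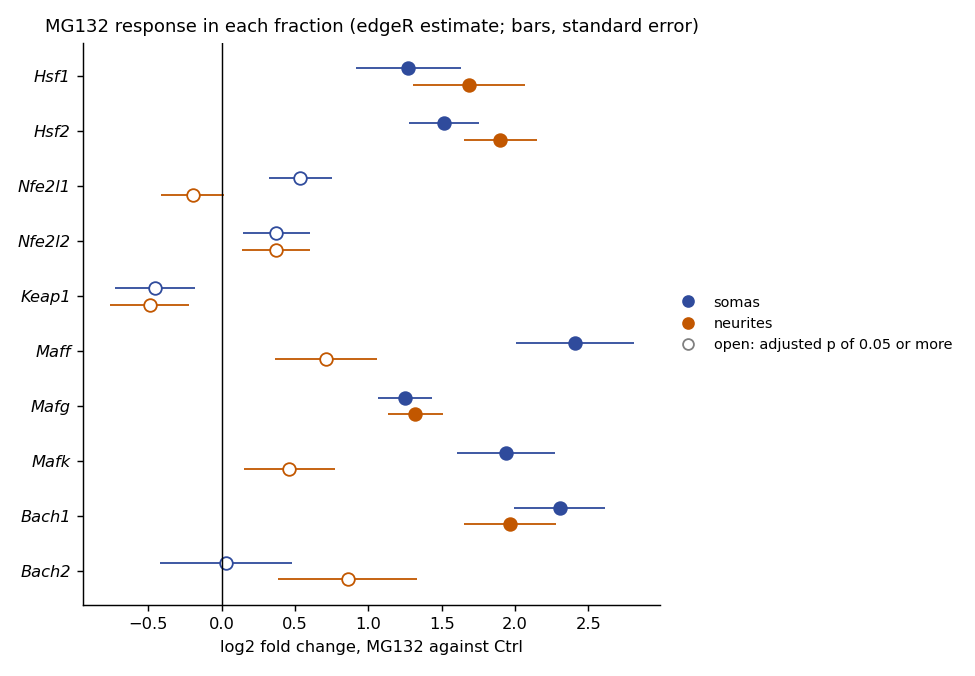
Log2 fold change of MG132 against Ctrl for the 10 regulators in somas and neurites, from edgeR, with bars of 1 standard error. Filled points had an adjusted p under 0.05. *Hsf1*, *Hsf2*, *Mafg* and *Bach1* are filled in both fractions, *Maff* and *Mafk* in somas.

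The response of a gene in neurites minus its response in somas was tested as an interaction in the same model. By edgeR 0 of the 10 genes were called, against 0% of the 14185 tested genes, and DESeq2 called 0 of the 10. At an unadjusted p under 0.05 there were 3 of the 10 genes and 1000 of all genes. These were *Mafk* at -1.48 ± 0.45 (unadjusted p = 0.00503, adjusted p = 0.468), *Maff* at -1.70 ± 0.53 (unadjusted p = 0.00561, adjusted p = 0.472) and *Nfe2l1* at -0.73 ± 0.30 (unadjusted p = 0.0291, adjusted p = 0.651). Each was negative in 3 of 3 same-numbered sets of libraries. With the replicate number as a block, *Mafk* was called (-1.54, adjusted p = 0.0228), where 0.303% of all genes were called lower, *Maff* gave -1.73 (adjusted p = 0.0524) and *Nfe2l1* -0.70 (adjusted p = 0.122). For the remaining 7 the interaction ran from -0.34 for *Bach1* to 0.83 for *Bach2*, with standard errors of 0.26 to 0.65. The MG132 log2 fold changes of *Maff* and *Mafk* were thus smaller in neurites than in somas. This difference passed the test only for *Mafk*, and only with the block.

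Small MAF proteins compete for the same partners, so the make-up of their mRNA pool was read within each library per kilobase. The summed level of the 3 genes was 7.12 ± 1.37 CPM per kilobase (SD, n = 3) in Ctrl somas, 23.0 ± 1.87 in MG132 somas, 39.8 ± 10.8 in Ctrl neurites and 64.9 ± 24.8 in MG132 neurites. *Mafg* made up 58.0% ± 3.95 of it in Ctrl somas, 42.6% ± 6.78 in MG132 somas, 10.50% ± 3.19 in Ctrl neurites and 16.6% ± 5.74 in MG132 neurites. *Maff* made up 16.5% ± 3.16, 27.2% ± 2.64, 56.5% ± 7.65 and 56.2% ± 8.70 in the same order. Per kilobase, the most abundant small MAF mRNA was therefore *Mafg* in all 6 somas libraries and *Maff* in all 6 neurites libraries. In MG132 somas replicate 2 *Mafg* led *Mafk* by only 35.4% to 34.7%. The order in neurites depends on the transcript lengths used. On undivided counts *Mafk* exceeded *Maff* in Ctrl neurites replicate 1 (121 against 110) and in MG132 neurites replicate 3 (309 against 283).

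In somas MG132 libraries did not overlap Ctrl libraries for the *Maff* share, which was 10.7 percentage points higher (SE 2.38), or for the *Mafg* share, at -15.4 (SE 4.53), each with an exact two-sided permutation p of 0.1 (adjusted p = 0.2). In neurites the *Maff* share differed by -0.30 percentage points (SE 6.69, exact p = 0.9). *Mafk* was the steadiest, with mean shares between 25.4% and 33.0% in the 4 groups. On counts not divided by transcript length, the somas gain of *Maff* was 7.00 percentage points.

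**Figure D4:**
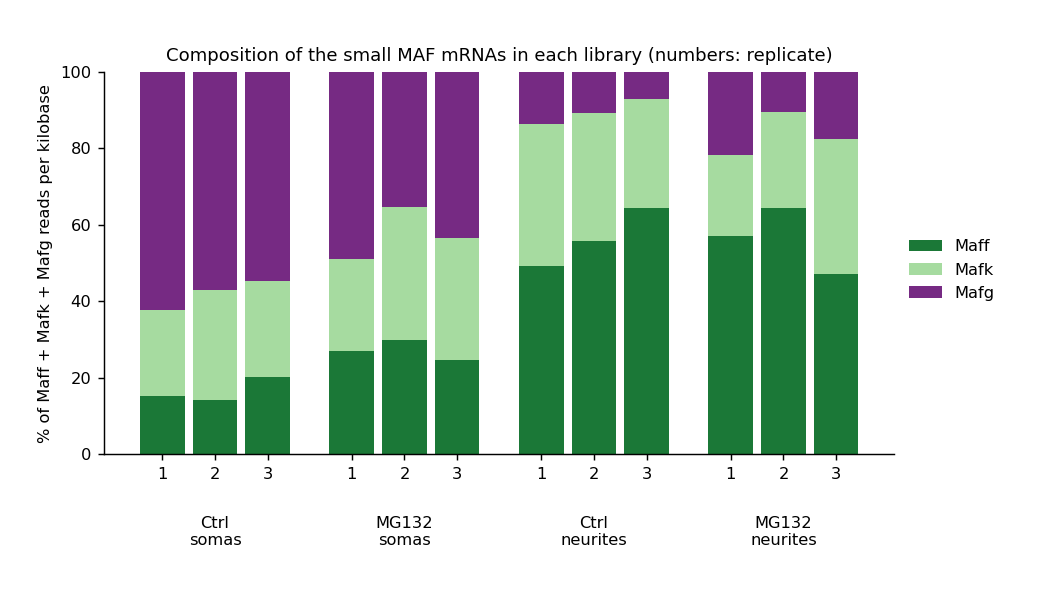
Share of *Maff*, *Mafk* and *Mafg* in their summed counts per kilobase, 1 stacked bar per library, 3 libraries per group. *Mafg* is the largest segment in each somas library, and *Maff* in each neurites library.

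*Bach1* (Entrez 12013, chromosome 16, 87698954 to 87733346), a repressor of heme and antioxidant genes such as *Hmox1*, rose with MG132. It had 21.5, 21.5 and 29.5 CPM in Ctrl somas, 97.0, 105 and 155 in MG132 somas, 14.0, 26.4 and 34.5 in Ctrl neurites, and 65.2, 107 and 123 in MG132 neurites. Every MG132 library exceeded every Ctrl library. The log2 fold change was 2.30 ± 0.31 in somas (adjusted p = 1.13e-04) and 1.97 ± 0.31 in neurites (adjusted p = 3.26e-04), next to 0.37 for the activator *Nfe2l2* in each.

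The log2 ratio of *Nfe2l2* to *Bach1* per kilobase was 3.20 ± 0.42 (SD, n = 3) in Ctrl somas, 1.29 ± 0.33 in MG132 somas, 2.998 ± 0.27 in Ctrl neurites and 1.40 ± 0.25 in MG132 neurites. MG132 libraries were below Ctrl libraries in each fraction with no overlap, with a difference of -1.91 ± 0.31 (SE) in somas and -1.60 ± 0.21 in neurites (each exact two-sided permutation p = 0.1, adjusted p = 0.2). Relative to *Nfe2l2*, the mRNA of the repressor was thus higher after MG132 and that of the adaptor *Keap1* lower, by separation of libraries alone. By edgeR *Bach1* was called in both fractions, whereas *Nfe2l2* and *Keap1* were called in neither.

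*Bach2* (Entrez 12014, chromosome 4, 32238413 to 32586109), a repressor best known from lymphocytes, was the lowest member per kilobase in neurites. It had 9.74, 21.5 and 12.6 CPM in Ctrl somas, 16.3, 11.5 and 16.5 in MG132 somas, 4.76, 9.06 and 6.56 in Ctrl neurites, and 4.79, 22.2 and 9.41 in MG132 neurites, from as few as 18 counts. All groups overlapped between treatments. The log2 fold change was 0.03 ± 0.45 in somas (adjusted p = 0.972) and 0.86 ± 0.47 in neurites (adjusted p = 0.197). Without MG132 neurites replicate 2 the neurites value was 0.049 (adjusted p = 0.953). Exons of the antisense gene *Bach2os* cover 4.66% of its exonic bases.

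The fraction comparison asked which regulator mRNAs were more abundant in neurites than in somas. In Ctrl cultures *Maff*, *Mafk*, *Nfe2l1* and *Keap1* were higher in neurites, by 19.7-fold, 7.05-fold, 5.62-fold and 1.90-fold. The same 4 were higher after MG132, by 6.07-fold, 2.53-fold, 3.38-fold and 1.86-fold. In Ctrl these 4 of the 10 genes were called higher, against 10.2% of all tested genes, and 0 were called lower, against 4.65%. Libraries did not overlap for 5 of the 10, against 33.7%. After MG132 4 were called higher, against 11.4%, and 0 lower, against 6.35%, and libraries did not overlap for 4, against 36.8%. With the replicate block, 2 were also called lower in Ctrl neurites, against 9.28% of all genes, *Hsf2* (-0.61, adjusted p = 0.0399) and *Bach2* (-1.08, adjusted p = 0.0395).

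In log2 terms the ratio of neurites to somas in Ctrl was 4.30 ± 0.42 for *Maff* (adjusted p = 6.62e-06), 2.82 ± 0.34 for *Mafk* (adjusted p = 4.31e-05), 2.49 ± 0.23 for *Nfe2l1* (adjusted p = 4.28e-06) and 0.93 ± 0.27 for *Keap1* (adjusted p = 0.0320). After MG132 these ratios were 2.60 ± 0.37 (adjusted p = 1.86e-04), 1.34 ± 0.31 (adjusted p = 0.00789), 1.76 ± 0.22 (adjusted p = 7.24e-05) and 0.89 ± 0.27 (adjusted p = 0.0349). The *Maff* and *Nfe2l1* calls held in each of the fits that left out 1 library. *Mafk* after MG132 was lost without MG132 neurites replicate 2 (1.07, adjusted p = 0.0513). The *Keap1* call was lost in 5 of 6 such fits in Ctrl, with adjusted p-values up to 0.170, and in 4 of 6 after MG132, with adjusted p-values up to 0.144.

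None of the other 6 members was called between fractions in the main fit, although the Ctrl libraries of *Bach2* did not overlap between fractions. In Ctrl the log2 ratio was -0.79 ± 0.38 for *Hsf1* (adjusted p = 0.196), -0.61 ± 0.24 for *Hsf2* (adjusted p = 0.116), -1.07 ± 0.47 for *Bach2* (adjusted p = 0.153), -0.18 for *Nfe2l2*, -0.05 for *Mafg* and 0.06 for *Bach1*. *Hsf1* was called without Ctrl neurites replicate 3 (-1.48, adjusted p = 0.0179), and *Hsf2* without Ctrl somas replicate 3 (-0.87, adjusted p = 0.0355). After MG132 these 6 lay between -0.37 for *Hsf1* and 0.02 for *Mafg*, and none passed the test. Within a library, *Nfe2l1* relative to *Nfe2l2* had a log2 ratio per kilobase of -0.23 ± 0.34 (SD, n = 3) in Ctrl somas, -0.07 ± 0.17 in MG132 somas, 2.44 ± 0.54 in Ctrl neurites and 1.87 ± 0.08 in MG132 neurites, with no overlap between fractions.

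**Figure D5:**
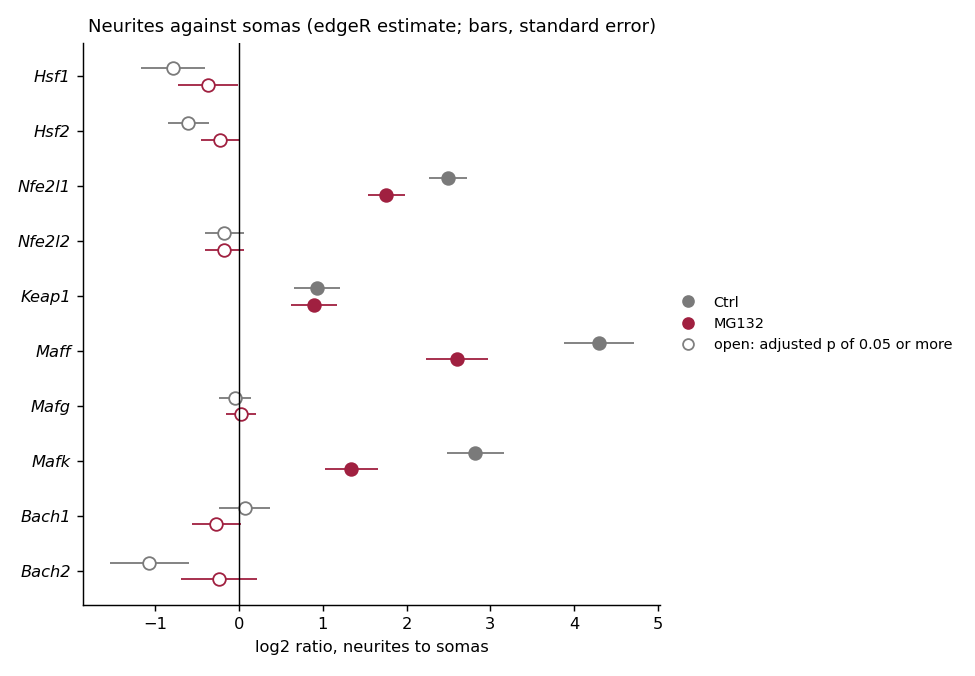
Log2 ratio of neurites to somas for the 10 regulators in Ctrl and MG132 cultures, from edgeR, with bars of 1 standard error. Filled points had an adjusted p under 0.05. *Nfe2l1*, *Keap1*, *Maff* and *Mafk* are filled on the side of neurites in both conditions.

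These fraction ratios depend on how libraries are scaled. With library totals in place of TMM factors, the median log2 ratio of all genes went from -0.04 to -0.70 in Ctrl and from -0.08 to -0.86 after MG132, and calls went from 1452 higher and 659 lower to 323 and 2741 in Ctrl, and from 1615 and 901 to 300 and 4340 after MG132. On totals *Keap1* was no longer called (0.26 in Ctrl, 0.12 after MG132), nor was *Mafk* after MG132 (0.62, adjusted p = 0.226). *Hsf1* (-1.43), *Hsf2* (-1.31) and *Bach2* (-1.70) were then called lower in Ctrl neurites, and *Hsf1*, *Hsf2*, *Nfe2l2* and *Bach1* in MG132 neurites. Some cell class markers also differed between fractions. Astrocyte markers summed to 21002 to 26172 CPM in Ctrl neurites and 9733 to 19933 CPM in MG132 neurites, against 2540 to 3336 CPM in MG132 somas. In Ctrl 4 of the 9 were called higher in neurites and 1 lower, against 10.2% and 4.65% of all tested genes. *Gfap*, an astrocyte filament, stood at 3.18 and *S100b*, a calcium-binding protein, at 2.48. *Gja1* was the marker called lower, at -1.08, and the median of the 9 was 0.08. *Gfap* alone averaged 17794 CPM in Ctrl neurites and 1967 CPM in Ctrl somas, and made up most of the sum in Ctrl neurites. Oligodendrocyte lineage markers summed to 4971 to 21750 CPM in Ctrl neurites, with 1 of 8 called higher, the myelin gene *Mbp* (2.89). *Mbp* averaged 11394 CPM in Ctrl neurites and 1542 CPM in Ctrl somas, and the median of the 8 was 0.13. Of 10 neuron markers 1 was called higher in Ctrl neurites and 2 lower. Their part in the levels of *Maff*, *Mafk*, *Nfe2l1* and *Keap1* was not tested.

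Levels can be ordered between genes only per length, here as mean CPM per kilobase of transcript with the SD over 3 libraries. In Ctrl somas *Nfe2l2* (37.7 ± 6.44) and *Nfe2l1* (31.9 ± 4.17) led with overlapping ranges, followed by *Hsf2* (10.3 ± 2.70). *Keap1* (5.12 ± 0.36), *Bach1* (4.12 ± 0.78), *Mafg* (4.09 ± 0.57) and *Hsf1* (3.81 ± 0.43) each overlapped the next. *Mafk* (1.84 ± 0.54), *Bach2* (1.72 ± 0.72) and *Maff* (1.19 ± 0.37) came last and overlapped. After MG132 the somas order kept *Nfe2l2* (48.7 ± 6.40), *Nfe2l1* (46.3 ± 3.59) and *Hsf2* (29.3 ± 3.17) in front, and *Bach1* (20.3 ± 5.35) came next, apart from the 6 below it. *Mafg* (9.71 ± 0.84), *Hsf1* (9.19 ± 1.75), *Mafk* (7.01 ± 1.78) and *Maff* (6.27 ± 0.98) each overlapped their neighbour, and *Keap1* (3.68 ± 0.89) and *Bach2* (1.74 ± 0.33) stood below.

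In Ctrl neurites *Nfe2l1* (179 ± 62.2) stood alone. *Nfe2l2* (33.1 ± 10.6) and *Maff* (23.0 ± 9.31) overlapped, as did each pair of neighbours from *Mafk* (12.8 ± 1.68) through *Keap1* (9.76 ± 2.21), *Hsf2* (6.77 ± 1.89), *Bach1* (4.25 ± 1.76), *Mafg* (3.95 ± 0.22) and *Hsf1* (2.17 ± 1.41) to *Bach2* (0.80 ± 0.25). In MG132 neurites *Nfe2l1* (156 ± 17.0) again stood alone, and *Nfe2l2* (43.0 ± 6.70), *Maff* (37.5 ± 19.5), *Hsf2* (25.1 ± 3.26), *Mafk* (17.6 ± 6.87) and *Bach1* (16.8 ± 5.07) each overlapped the next. *Mafg* (9.85 ± 0.35) overlapped *Mafk* but neither of its direct neighbours in this order, *Bach1* and *Hsf1*. *Hsf1* (7.10 ± 1.20) and *Keap1* (6.88 ± 1.91) overlapped, and *Bach2* (1.43 ± 1.06) was lowest. *Maff* thus had the lowest mean of the 10 in Ctrl somas and the third highest in Ctrl neurites.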

How the data were processed

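Whole-number read counts per gene, by Entrez identifier, were deposited for each of 12 libraries. On usegalaxy.org the authors made the counts from polyA-selected RNA-Seq with Trimmomatic 0.38.0, STAR (reads aligned as single ends) at default parameters on mm10 and featureCounts 2.0.1 at default parameters, and tested them with DESeq2 2.11.40.7. Strand use and the handling of multiply aligned reads are not given beyond these defaults. Default counting leaves out reads that fall on more than 1 gene or place.

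The analysis used edgeR 4.0.16 and limma 3.58.1 under R 4.3.3. The filterByExpr filter by group kept 14185 of 27179 genes, TMM factors (0.567 to 1.44) scaled the libraries, and the quasi-likelihood fit took the 4 groups as means over all libraries. There were 5 contrasts, with Benjamini-Hochberg adjustment over all tested genes and a call at an adjusted p under 0.05. Standard errors are the absolute log2 fold change over the square root of F. Levels are TMM-normalized CPM. Values per kilobase use the longest GENCODE M21 transcript paired with a RefSeq mRNA. Ratios and shares within a library were compared by exact two-sided permutation tests. The edgeR comparison of MG132 with Ctrl somas was tested on simulated counts. The other contrasts, the ratios and the motif search were not.

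The regulators and all gene lists were chosen with earlier results of these data known. All 10 regulators are named, at most 4 genes per list by the largest absolute log2 fold change in somas at a mean of at least 1 CPM (others are marked as chosen later or needed by the text), and the 2 genes most like each regulator that was called after MG132. Replicate numbers were taken to pair libraries because they follow the dates carried in the library names, apart from MG132 neurites replicate 3. Deviations from the group means correlated between same-numbered libraries by 0.0972 to 0.248 (mean 0.199 over 18 pairs). No 2 libraries held identical counts. Symbols and coordinates came from RefSeq on GRCm38. Alternatives were DESeq2 1.42.0, its size factors, library totals, TMM without mitochondrial genes and the most abundant gene, no count filter, a minimum of 10 counts per library, fits of only the groups compared, the replicate block, stricter thresholds and leaving out each library.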

Additional observations from a re-analysis of the deposited data

Results flagged for a closer look

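A difference in response between neurites and somas drew attention to 3 regulators, because their unadjusted interaction p was under 0.05 while none passed after adjustment by edgeR. The MG132 log2 fold change of *Mafk* in neurites minus that in somas was -1.48, and that of *Maff* was -1.70. Both were already higher in Ctrl neurites than in Ctrl somas, at 36.5 ± 4.78 against 5.23 ± 1.55 CPM for *Mafk* and 45.0 ± 18.2 against 2.32 ± 0.72 CPM for *Maff* (SD, n = 3). The third was *Nfe2l1*, at -0.73, whose neurites value rests on Ctrl neurites replicate 3. Leaving out each library in turn gave -1.75 to -1.15 for *Mafk*, -2.23 to -1.24 for *Maff* and -0.87 to -0.30 for *Nfe2l1*. Adjusted p-values ranged from 0.486 to 0.784, from 0.420 to 0.790 and from 0.535 to 0.855.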

How the results depend on the processing

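With 3 libraries per group and as few as 8, 20 and 18 counts of *Hsf1*, *Maff* and *Bach2* in a Ctrl library, small differences were not detectable. The counts of called regulators and the ratio and share differences held (within 1.5 times, or 1 SD) in 52 values under other settings and moved in 5, and without 1 library they held in 83 and moved in 1. A count could hold while the genes called, or their direction, changed. On library totals the fraction comparisons lost *Keap1* and gained genes called lower, as given above. An interaction with no calls in either fit also counted as held. Of the single-gene values under other settings, 352 kept direction and call, 14 gained a call, 5 lost one and 14 turned sign. The replicate block gave 7, 5, 6 and 4 calls for the somas, neurites, Ctrl fraction and MG132 fraction comparisons and 1 for the interaction (*Mafk*), and apart from the calls given with the results it changed no other call. At the stricter threshold (adjusted p under 0.01 with a log2 fold change past 1.7 in size), 3 genes were called in somas, 2 in neurites and 2 between fractions after MG132 (main values 6, 4 and 4). Leaving out 1 library gave 5 to 6 calls in somas, 4 to 5 in neurites, 3 to 4 between fractions in Ctrl and 2 to 4 after MG132, the lowest being without MG132 neurites replicate 2. The *Maff* share gain in somas was 7.00 percentage points on counts not divided by length. Keeping only genes with at least 10 counts in every library left out *Hsf1*.

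Signs turned only for log2 values that were not called in either form, and the cause was not tested. *Bach2* in somas became -0.038 with DESeq2 size factors, -0.042 by DESeq2 and -0.073 with at least 10 counts. *Bach1* between fractions in Ctrl became -0.54 on totals, -0.0088 with TMM without mitochondrial genes and the top gene and -0.012 with no filter. *Mafg* between fractions after MG132 became -0.78 on totals and -0.047 with at least 10 counts. Of the interactions, *Nfe2l2* became -0.17 on totals and -0.015 with at least 10 counts, *Mafg* -0.065 on totals, and *Keap1* 0.0015 with DESeq2 size factors, 0.068 with the other TMM factors and 0.084 with no filter. Without 1 library, values ran from -0.19 to 0.41 for *Bach2* in somas and -0.34 to 0.24 for *Nfe2l1* in neurites. Between fractions they ran from -0.36 to 0.064 for *Nfe2l2* and -0.30 to 0.34 for *Bach1* in Ctrl, and from -0.052 to 0.13 for *Mafg*, -0.41 to 0.018 for *Bach1* and -1.05 to 0.12 for *Bach2* after MG132. For the interaction they ran from -0.24 to 0.22 for *Nfe2l2*, -0.20 to 0.26 for *Keap1*, -0.0030 to 0.29 for *Mafg* and -0.61 to 0.069 for *Bach1*. The neurites differences in the *Hsf1* to *Hsf2* log2 ratio and the *Maff* share, which had no call, ran from -0.64 to 0.70 and from -4.44 to 4.24 percentage points.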

Other observations

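Relatives of the regulators were read from the same fit. The large MAF gene *Maf*, whose product carries the activation domain that small MAFs lack, fell after MG132 in both fractions, by -2.28 ± 0.31 in somas (edgeR adjusted p = 1.14e-04) and -2.28 ± 0.31 in neurites (adjusted p = 1.00e-04) on the log2 scale. *Maf* is known from microglia and macrophages, and the summed microglia markers stood at 966 to 1254 CPM in Ctrl somas, 346 to 606 in MG132 somas, 811 to 1423 in Ctrl neurites and 230 to 367 in MG132 neurites. Their part in the fall was not tested. *Nfe2l3*, another CNC activator, gave -0.22 in somas (adjusted p = 0.806) and -0.64 in neurites (adjusted p = 0.454). Of the 4 other heat shock factor genes listed, 0 passed the low-count filter.

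Immediate early genes, many of which encode partners or competitors of MAF proteins, were called higher for 8 of 16 in somas and 9 of 16 in neurites, with 0 lower and medians of 1.67 and 1.84. All tested genes were called higher for 15.5% in somas and 14.7% in neurites. *Atf3*, a stress-induced bZIP factor, rose by 4.94 ± 0.33 and 4.25 ± 0.32. *Arc*, a synaptic activity gene, rose by 2.81 and 2.61. *Fosl1* was at 0 in each Ctrl library.

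Of 13620 tested genes that averaged 1 CPM or more, those whose log2 CPM most resembled that of each called regulator over the 12 libraries were *Tmem74* (Pearson r = 0.969) and *Nfx1* (0.969) for *Hsf1*, *Zbtb11* (0.986) and *8030462N17Rik* (0.984) for *Hsf2*, *Ccdc47* (0.989) and *Zfp146* (0.988) for *Maff*, *Slc3a2* (0.989) and *Fam135a* (0.987) for *Mafg*, *H2-Q4* (0.989) and the gene of Entrez 11641 (0.983) for *Mafk*, and *Trib3* (0.983) and *Fbxo38* (0.978) for *Bach1*. These values describe likeness over 12 libraries that fall into 4 groups.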
